A study of Mus musculus with 20 samples.

Results

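The comparison described here sets tumors injected with an adenoviral vector for interferon beta (IFNbeta) against tumors injected with the same kind of vector carrying enhanced green fluorescent protein (eGFP), the control for the vector itself. Its members are the 10 arrays, of 20 in the series, that the titles assign to these groups, 5 for IFNbeta alone and 5 for eGFP. Each array held RNA from an LLC-1 tumor, an implant of the Lewis lung carcinoma cell line, in a mouse of the C57Bl/6 strain, so host and tumor carry the same kind of genome and their transcripts are measured together. All groups received 5 injections, 48 h apart, each of 25 µl of PBS that held virus at a log10 dose of 8 infectious units. The virus was produced on 293-A cells. The remaining 10 arrays came from tumors given p19Arf, the tumor suppressor that frees p53 from Mdm2, or p19Arf together with IFNbeta. No untreated or buffer-injected tumor was among the samples, so every value below is relative to a tumor that had itself received 5 doses of adenovirus. The titles number the tumors of a group and do not say that each came from a separate mouse, and p-values therefore measure the spread between these samples.

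Interferon beta is a secreted type I interferon. It binds the receptor Ifnar1 and Ifnar2 on nearly all nucleated cells, activates the kinases Jak1 and Tyk2, and leads a factor that includes Stat2 and Irf9 to bind a DNA element, the interferon-stimulated response element (ISRE), in front of many genes. Their products degrade or sequester viral RNA, sense foreign nucleic acid, raise antigen presentation and, in tumors, can help natural killer (NK) and T cells. Adenovirus particles can also induce interferon on their own.

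The genes with the highest values relative to eGFP included several whose promoters carry an ISRE written in the reference genome. For Ms4a4d, Fcrl5 and Phf11d, also higher in IFNbeta, the promoter window held 0 such elements. The stretches below were picked because they hold the element and their genes were higher in IFNbeta, and because 3 pairs of them are near-copies of each other. They come from RefSeq promoter windows of build GRCm38.p6 (250 bases before to 50 after the annotated start), run 5′ to 3′ on the gene's strand and stop before the start. Capitals mark every match to GAAANNGAAA or to its reverse complement TTTCNNTTTC, overlapping matches included.
Ifit3b, chr19:34607747-34607866, plus strand: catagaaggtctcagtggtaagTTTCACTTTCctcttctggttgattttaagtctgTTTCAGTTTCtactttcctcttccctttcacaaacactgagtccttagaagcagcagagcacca
Ifit3, chr19:34583349-34583468, plus strand: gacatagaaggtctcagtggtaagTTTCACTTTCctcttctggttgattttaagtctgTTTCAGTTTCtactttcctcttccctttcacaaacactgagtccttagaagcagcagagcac
Trim30a, chr7:104465194-104465313, minus strand: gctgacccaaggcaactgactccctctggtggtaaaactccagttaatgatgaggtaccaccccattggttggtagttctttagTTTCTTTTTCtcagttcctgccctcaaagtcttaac
Trim30d, chr7:104507850-104507969, minus strand: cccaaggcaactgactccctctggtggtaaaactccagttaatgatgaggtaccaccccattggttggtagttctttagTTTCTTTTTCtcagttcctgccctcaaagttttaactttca
Ifi208, chr1:173673545-173673664, plus strand: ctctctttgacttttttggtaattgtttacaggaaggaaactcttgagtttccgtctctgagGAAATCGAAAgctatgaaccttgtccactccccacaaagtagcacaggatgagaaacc
Ifi213, chr1:173599273-173599392, minus strand: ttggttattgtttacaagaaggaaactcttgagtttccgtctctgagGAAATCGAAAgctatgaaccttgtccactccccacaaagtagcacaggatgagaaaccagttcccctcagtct
Oas1a, chr5:120907526-120907645, minus strand: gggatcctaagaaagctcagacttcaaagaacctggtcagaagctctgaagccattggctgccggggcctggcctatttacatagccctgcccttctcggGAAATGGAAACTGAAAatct
Ddx60, chr8:61927967-61928086, plus strand: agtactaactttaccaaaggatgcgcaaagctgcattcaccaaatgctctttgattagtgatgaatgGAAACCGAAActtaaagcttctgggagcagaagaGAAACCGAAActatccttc

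The stretches of Ifit3b and Ifit3 shared an unbroken run of 118 bases, those of Trim30d and Trim30a 109 and those of Ifi208 and Ifi213 88. Genes this alike can also share probe sequence, so the array values of such relatives are uncertain to that extent and do not count as separate evidence. Oas1a held 2 overlapping matches that start 20 and 14 bases before its annotated start, and the matches of Ddx60 began 53 and 19 bases before its own.

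Over the whole table no gene passed the test. With limma and Benjamini-Hochberg adjustment over 19938 genes, 0 genes had an adjusted p under 0.05, and the smallest adjusted p was 0.836, for Ms4a4d. At an unadjusted p under 0.05 there were 557 genes (2.79%), 268 higher in IFNbeta (1.34%) and 289 lower (1.45%). Weighting each array by its estimated quality gave 5 genes past the adjusted threshold (Ms4a4d, Fcrl5, Ifit3b and Trim30d higher, Dbp lower). The other alternatives of the processing gave 0. Arrays of the groups were also close as a whole: correlations between an IFNbeta and an eGFP array ran from 0.977 to 0.995, against 0.982 to 0.994 within eGFP and 0.975 to 0.993 within IFNbeta. Every other gene named below had an adjusted p of 1 for IFNbeta against eGFP. Below, p stands for limma's unadjusted p unless named otherwise, used to describe and not to call genes, and differences are IFNbeta minus eGFP on the log2 scale, with the standard error (SE) of the fit.

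Over all genes, 8820 of 19938 (44.2%) had a higher mean in IFNbeta, and the median difference was -0.02. In 110 genes (0.552%) every IFNbeta array lay above every eGFP array, and in 69 (0.346%) every one lay below. The list counts below stand against these shares, and against 1.34% higher and 1.45% lower at p under 0.05. Of the 268 genes at p under 0.05 on the higher side, 174 had a level above that of the median gene, and of the 289 on the lower side 27 did.

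The deposited values ran from 2.33 to 14.7, with array medians between 7.49 and 7.61. The tissue was looked at through its own markers. Vim, the intermediate filament of mesenchymal cells, stood at 13.71 ± 0.04 in eGFP and 13.63 ± 0.12 in IFNbeta (SD, n = 5 each). Sftpc, the surfactant protein of lung alveoli, stood at 6.15 ± 0.19 and 5.96 ± 0.19. The table carries no detection calls, so these values do not show whether Sftpc was expressed.

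The gene that the vector carries did not stand apart. The Ifnb1 probe set read 6.25, 5.96, 6.10, 5.97 and 6.24 in the eGFP tumors and 6.10, 6.03, 6.65, 6.06 and 6.20 in the IFNbeta tumors. Apart from 1 IFNbeta array, replicate 3, the groups covered the same range. The difference was 0.10 (exact 2-sided permutation p = 0.516, where 0.00794 is the smallest p that 5 arrays against 5 allow) and became -0.01 without that array. Cdkn2a, the locus of p19Arf, which neither group received, differed by -0.06 (exact permutation p = 0.294). The labels do not say whether the Ifnb1 probes lie inside the inserted sequence, nor how long after the last injection RNA was taken.

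As a group, the interferon response genes were higher in the IFNbeta tumors by a small amount. They were arranged in 10 lists by role, of which 103 of 123 genes were measured. Their mean was higher in IFNbeta for 94 of the 103, against 44.2% of all genes. At an unadjusted p under 0.05 there were 38 on the higher side, where 1.34% of all genes stood, and 0 on the lower side. In 21 members no IFNbeta array overlapped any eGFP array, against 0.552% of all genes, and the median difference of the members was 0.21, against -0.02 for all genes.

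The mean log2 level of the 103 genes was 9.38, 9.36, 9.38, 9.38 and 9.40 in the eGFP tumors and 9.56, 9.55, 9.86, 9.55 and 9.71 in the IFNbeta tumors. The eGFP arrays were nearly level with each other, whereas the IFNbeta arrays lay all above them and were uneven. Replicate 3 was the highest and replicate 5 next. The difference of 0.26 between 9.64 ± 0.14 and 9.38 ± 0.01 (SD, n = 5 each) was 0.21 without IFNbeta replicate 3, and the 38 members at p under 0.05 became 24.

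Upstream in the pathway most differences were small. Of 12 genes for the receptor, its kinases and the transcription factors, 10 had a higher mean, with a median difference of 0.13. The receptor chain Ifnar1 differed by -0.01, Ifnar2 by 0.15, the kinase Jak1 by -0.02 and the kinase Tyk2 by 0.03. Stat2 and Irf9, parts of the factor that binds the ISRE, differed by 0.31 (SE 0.18, p over 0.05) and 0.15 (p over 0.05). None of these 6 genes had p under 0.05.

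Irf7 had the largest difference of that list. It is the factor that amplifies interferon production and is itself an interferon-stimulated gene. It read 9.79, 10.06, 9.62, 9.75 and 9.86 in eGFP and 10.23, 9.86, 11.17, 10.13 and 10.48 in IFNbeta. One IFNbeta array fell within the eGFP range and the others lay above it. The difference was 0.56 (SE 0.20, p under 0.05), and 0.36 without replicate 3.

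Genes that restrain the pathway were of 2 kinds. The suppressors Socs1 (-0.02), Socs3 (-0.04) and Cish (0.03), the SUMO ligase Pias1 (0.06) and the phosphatase Ptpn2 (-0.04) had differences near 0. Usp18, which removes Isg15 from proteins and blocks Ifnar2, read 9.53, 9.87, 9.94, 10.03 and 10.04 in eGFP and 10.45, 10.06, 11.01, 10.29 and 10.55 in IFNbeta. No IFNbeta array overlapped the eGFP range, and the difference was 0.59 (SE 0.17, p under 0.05, 1.51-fold). Trim30a, a RING-finger protein that dampens inflammatory signalling, read 10.92, 10.73, 10.77, 10.94 and 10.82 in eGFP and 11.25, 11.25, 11.65, 11.00 and 11.10 in IFNbeta. Its groups were also apart, by 0.42 (SE 0.11, p under 0.05). Its relative Trim30d differed by 0.63 (SE 0.15, p under 0.05) with the groups apart as well.

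The system that attaches Isg15, a ubiquitin-like protein, to other proteins and removes it had 4 measured genes, all with a higher mean. Usp18, described above, is the one that removes it. The ligase Herc6 differed by 0.32 (SE 0.12, p under 0.05), the conjugating enzyme Ube2l6 by 0.23 (p over 0.05) and the activating enzyme Uba7 by 0.09 (p over 0.05).

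Sensors of foreign nucleic acid were higher in 12 of 13 cases, against 44.2% of all genes, with a median of 0.19. At p under 0.05 there were 4 of them, against 1.34% of all genes. These 4 were the cytosolic RNA helicases Ddx58 (RIG-I, 0.32), Ifih1 (MDA5, 0.27) and Dhx58 (LGP2, 0.38), and Zbp1, a sensor of Z-form nucleic acid that can start necroptosis (0.38, SE 0.15, p under 0.05). Mavs, the adaptor of Ddx58 and Ifih1, differed by 0.04 (p over 0.05), and the endosomal receptors Tlr3 (0.20), Tlr7 (0.34) and Tlr9 (0.18) had p over 0.05.

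The Ifit proteins bind viral RNA that lacks the host cap pattern, and the Ifitm proteins hinder entry through membranes. Of 9 measured genes 8 had a higher mean, with a median of 0.35. Ifit3b read 5.61, 6.08, 5.60, 5.94 and 5.48 in eGFP and 6.37, 6.20, 7.45, 6.54 and 6.30 in IFNbeta. All IFNbeta arrays lay above all eGFP arrays, replicate 3 by the widest margin. The difference of 0.83 (SE 0.19, p under 0.05, 1.77-fold) was 0.61 without replicate 3 and 0.55 without IFNbeta replicates 3 and 4. Its near-copy Ifit3 differed by 0.57 (p under 0.05), Ifit1bl2 by 0.53, Ifit1 by 0.35 and Ifit2 by 0.34 (p over 0.05). Among the membrane proteins Ifitm6 differed by 0.46 (p under 0.05), whereas Ifitm1 (0.10), Ifitm2 (-0.06) and Ifitm3 (0.04) were near 0.

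The Oas enzymes make short oligoadenylates that switch on the nuclease RNase L. All 8 measured members had a higher mean, with a median of 0.43 (0.28 without IFNbeta replicate 3) and 5 at p under 0.05. Oas2 read 10.58, 9.93, 10.09, 9.87 and 10.12 in eGFP and 10.50, 10.44, 11.64, 10.45 and 10.53 in IFNbeta. eGFP replicate 1 lay above every IFNbeta array except replicate 3, and IFNbeta replicate 3 stood more than a log2 unit above its group. The difference of 0.60 (SE 0.24, p under 0.05) was 0.36 without that array. Oas1a differed by 0.46 (SE 0.16, p under 0.05, groups apart), Oas3 by 0.47, Oasl1 by 0.45 and Oasl2 by 0.37.

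Other antiviral effectors were higher in 25 of 27 cases, with a median of 0.21 and 11 at p under 0.05. Phf11d, a PHD-finger gene, read 8.24, 8.54, 8.43, 8.58 and 8.53 in eGFP and 9.11, 8.92, 9.96, 9.03 and 8.97 in IFNbeta. The groups were apart, by 0.73 (SE 0.16, p under 0.05, 1.66-fold). Ddx60, a helicase that supports RNA sensing, differed by 0.52 (SE 0.15, p under 0.05), Cmpk2, a mitochondrial nucleotide kinase, by 0.51, and Rsad2 (viperin), which makes a chain-terminating nucleotide, by 0.53. Mx1, a GTPase gene, read 7.58, 7.52, 7.24, 7.42 and 7.38 in eGFP and 7.77, 7.59, 9.07, 7.82 and 7.85 in IFNbeta. It too was apart in every array, but barely, with the nearest arrays at 7.58 and 7.59. Its difference of 0.59 (p under 0.05) was 0.33 without IFNbeta replicate 3 and 0.31 without replicates 3 and 4. Mx2 (0.55), Ifi27l2a (0.56), Rtp4 (0.36), Bst2 (tetherin, 0.31) and Trim25 (0.30) were higher at p under 0.05. Ifi44l was the lowest of the list at -0.13 (p over 0.05), and Apobec3 stood at -0.00.

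The PYHIN (Ifi200) family, which binds DNA in nucleus and cytosol, was higher in 7 of 7 measured genes, with a median of 0.27. Ifi213 read 8.07, 8.23, 8.21, 8.18 and 7.81 in eGFP and 8.72, 8.49, 9.39, 8.56 and 8.92 in IFNbeta. The groups were apart by 0.72 (SE 0.19, p under 0.05). Ifi208 (0.66) and Ifi209 (0.68) were apart as well, while Ifi202b (0.03) and Ifi203 (0.13) were not, and Ifi208 and Ifi213 share the promoter stretch printed above.

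The Schlafen genes, regulators of lymphocyte and myeloid growth, were higher in 7 of 7, with a median of 0.42 and 5 at p under 0.05. The matching shares of all genes were 44.2% and 1.34%. Slfn4 had the largest difference of any interferon member. It read 11.06, 10.21, 10.24, 10.22 and 9.85 in eGFP and 11.21, 10.71, 12.46, 10.70 and 11.00 in IFNbeta. eGFP replicate 1 overlapped the IFNbeta range, and the difference of 0.90 (SE 0.33, p under 0.05) was 0.59 without IFNbeta replicate 3. Slfn8 differed by less (0.42, SE 0.14, p under 0.05) with the groups apart.

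Guanylate-binding proteins and interferon-inducible GTPases, which attack the membranes around intracellular pathogens and respond to interferon gamma as well, were higher in 10 of 10. Their differences were narrow, from 0.05 for Iigp1 to 0.27 for Gbp11, with a median of 0.20 and 1 gene at p under 0.05.

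**Figure D1:**
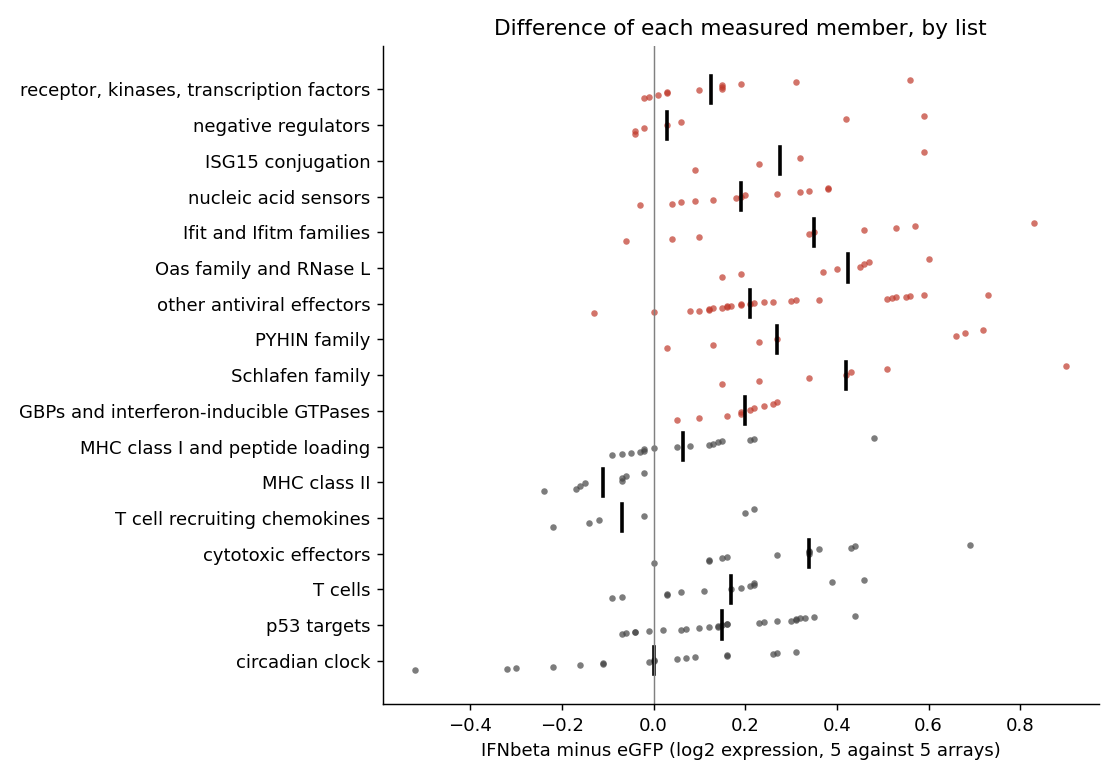
Difference of every measured gene between IFNbeta and eGFP tumors (x axis, log2 expression, 5 against 5 arrays), by list (y axis). Each point is a gene (red for the 10 interferon lists, grey for others; height within a list only separates the points), and black bars are list medians. Among the 10 interferon lists the Oas (0.43) and Schlafen (0.42) medians lie farthest right and that of the negative regulators (0.03) nearest 0, and MHC class II lies left of 0 at -0.11.

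**Figure D2:**
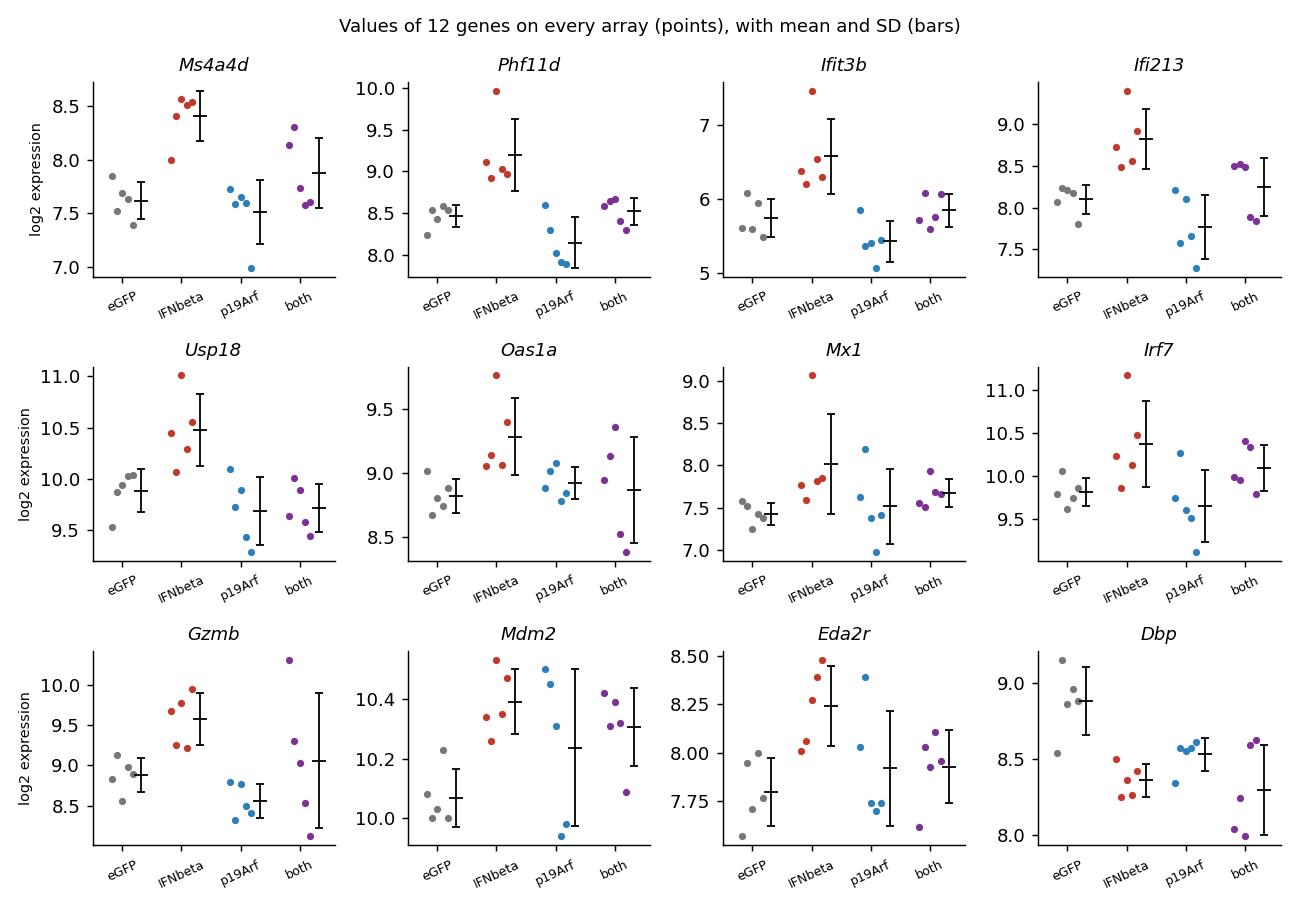
Log2 expression of 12 genes (y axes, a different range in each panel and not from 0) on every array of the 4 vector groups (x axis; "both" is p19Arf with IFNbeta). Points are arrays and bars the group mean with SD (n = 5); IFNbeta replicate 3 is the highest IFNbeta point for Phf11d (9.96), Ifit3b (7.45) and Mx1 (9.07), whereas for Ms4a4d the IFNbeta arrays lie between 8.00 and 8.57.

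Promoters of these genes often carried the ISRE. Windows of 300 bases were at hand for 15563 of the measured genes, and 605 of them (3.89%) held GAAANNGAAA on either strand. Among the genes at p under 0.05, the ISRE was found in 28 of 203 on the higher side (13.8%) and in 8 of 224 on the lower side (3.57%). Of the 83 interferon members with a window, 35 (42.2%) held it. High shares were 5 of 5 in the guanylate-binding list, 5 of 7 in the PYHIN family and 6 of 9 among the Ifit and Ifitm genes. Lower ones were 6 of 20 other antiviral effectors, 2 of 12 in the receptor and transcription factor list and 0 of 3 for Isg15 conjugation. Of the 12 genes on the higher side with the smallest p, 10 had a window and 5 of these held the element. Those 5 were Ifit3b, Trim30d, Ifi208, Ifi213 and Trim30a, whose windows are near-copies within their families. Among genes with a window, the gamma-activated element TTCNNNGAA was in 9.01% of all, 10.3% on the higher side and 8.93% on the lower side. It was in 20 of the 83 interferon members with a window (24.1%). A match is a stretch of letters and not a measured binding site.

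The interferon vector was also given together with p19Arf, and those 10 arrays share none with the comparison above. The labels give the combination the same virus dose as the other groups and do not state the dose of each vector in it. An effect of p19Arf and one of the interferon vector's dose can therefore not be told apart here. The combination against p19Arf alone gave 0 genes at an adjusted p under 0.05 in limma (smallest 0.998) and 612 (3.07%) at an unadjusted p under 0.05, of which 365 (1.83%) were higher and 247 (1.24%) lower. Of the interferon members 84 of 103 were higher with the second vector, against 46.9% of all genes. At an unadjusted p under 0.05 there were 18 of them, where 1.83% of all genes stood, and their median difference was 0.15. The mean level of the 103 genes was 9.48, 9.45, 9.35, 9.13 and 9.10 with p19Arf and 9.48, 9.56, 9.54, 9.35 and 9.33 with the combination. These ranges overlapped, and p19Arf replicates 4 and 5 were the lowest arrays.

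Of the 268 genes on the higher side in IFNbeta against eGFP, 225 (84%) also had a higher mean in the combination against p19Arf, where 46.9% of all genes did. Their median difference went from 0.34 to 0.15. Of the 289 on the lower side 183 (63.3%) had a lower mean, where 53.1% of all genes did, and their median went from -0.25 to -0.02. Both sets were chosen by p in the first of these comparisons. A smaller median in the other comparison can come from that choice, and how much of it does was not tested. It is therefore not read as an effect of p19Arf.

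Whether the interferon difference itself differed between tumors without and with p19Arf was tested as an interaction. No gene passed in limma (0 genes, smallest adjusted p 1), and 260 genes (1.3%) had an unadjusted p under 0.05. Of the interferon members 5 of 103 did, namely Usp18, Herc6, Oas1a, Cmpk2 and Socs3. Usp18 differed by 0.59 without p19Arf and by 0.03 with it (interaction -0.57, SE 0.23, p under 0.05), and Cmpk2 by 0.51 and -0.11. In contrast Slfn4 differed by 0.90 and 0.82 (interaction -0.08, p over 0.05), and Zbp1 by 0.38 and 0.41. Ms4a4d lay between, at 0.79 and 0.37 (p over 0.05). The genes given with values here were picked for large statistics in IFNbeta against eGFP, a difference that enters the interaction. That choice alone moves their interactions down, so these are not read as effects of p19Arf.

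**Figure D3:**
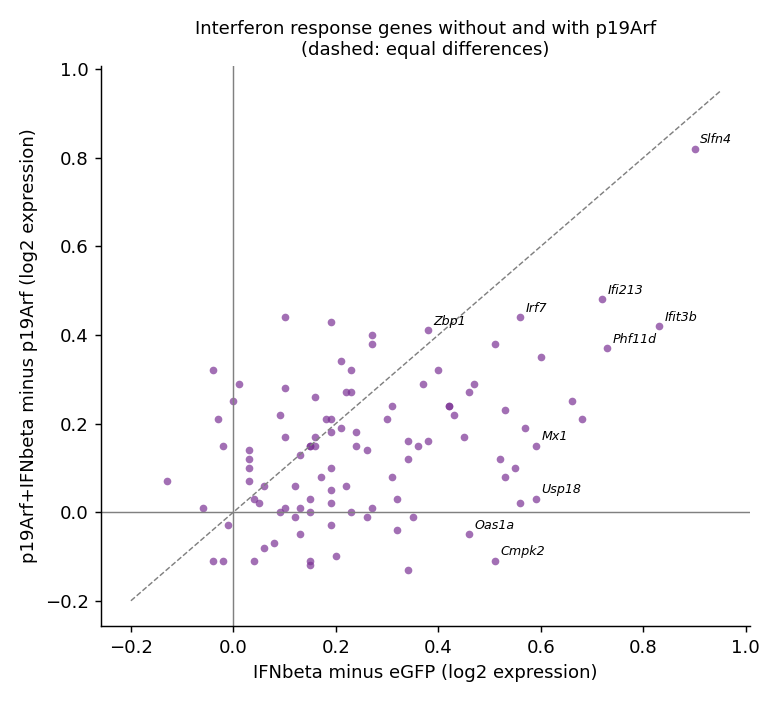
Each point is 1 of the 103 interferon genes, with its difference IFNbeta minus eGFP (x axis) against its difference p19Arf with IFNbeta minus p19Arf (y axis), both in log2 expression from 5 against 5 arrays that are not shared. On the y axis 84 genes lie above 0; Usp18 and Oas1a lie near 0 there while Slfn4 lies at 0.82, and the dashed line marks equal differences.

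Outside the interferon lists, the gene with the smallest p of all was Ms4a4d, a 4-span membrane protein of lymphocytes and macrophages. It read 7.85, 7.52, 7.69, 7.63 and 7.39 in eGFP and 8.00, 8.41, 8.57, 8.51 and 8.54 in IFNbeta. The groups were apart, and replicate 1 was the IFNbeta array nearest to eGFP. The difference was 0.79 (SE 0.15, p under 0.05, 1.73-fold, adjusted p = 0.836). Its neighbour in the family Ms4a4c differed by 0.76 (SE 0.21, p under 0.05, groups apart) and Ms4a4b by 0.52 (p under 0.05). The family as a whole was higher in 11 of 15 genes, with a median of 0.12 (0.05 without IFNbeta replicate 1), and the B cell member Ms4a1 (CD20) differed by -0.38 (p over 0.05) and by 0.02 without eGFP replicate 4.

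Fcrl5, a B cell member of the Fc receptor-like proteins, came next. It read 6.56, 6.95, 6.94, 6.84 and 6.70 in eGFP and 7.49, 7.40, 7.04, 7.43 and 7.92 in IFNbeta. Here replicate 3 was the lowest IFNbeta array, still above the eGFP range, and the difference was 0.66 (SE 0.14, p under 0.05). Of the 12 B and plasma cell markers, itself included, 5 were higher, with a median of -0.04 that changed sign under quantile normalization. With p19Arf the Fcrl5 difference was -0.05 (interaction -0.71, SE 0.20, p under 0.05). Fcrl5 was picked for its small p in IFNbeta against eGFP, a difference that enters the interaction. That choice alone moves the interaction down, so its p is not read as an effect of p19Arf.

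Lymphocyte and cytotoxic genes leaned higher. In whole tumors a change in the number of cells and a change in RNA per cell cannot be told apart. Of 13 cytotoxic effectors 12 had a higher mean, against 44.2% of all genes, and 2 were at p under 0.05, against 1.34%. Their median difference was 0.34. The median was 0.16 without eGFP replicate 3 and 0.15 without IFNbeta replicate 4. Granzyme B (Gzmb), the protease that killer cells deliver into targets, read 8.83, 9.13, 8.56, 8.98 and 8.89 in eGFP and 9.67, 9.25, 9.77, 9.22 and 9.95 in IFNbeta. The groups were apart by 0.69 (SE 0.26, p under 0.05). The death ligand Tnfsf10 (TRAIL), itself inducible by interferon, differed by 0.34 (p under 0.05), Nkg7 by 0.43 and granzyme A (Gzma) by 0.44 (p over 0.05), whereas perforin (Prf1) differed by 0.12 and Ifng by -0.00.

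The list of cytotoxic genes as a whole overlapped between groups, at 7.32 to 7.89 in eGFP and 7.69 to 8.09 in IFNbeta. T cell markers were higher in 11 of 13, with a median of 0.17 (0.11 without IFNbeta replicate 5). The CD8 chain Cd8b1 differed by 0.39 (SE 0.18, p under 0.05), Cd8a by 0.22, Cd3g by 0.46 (p over 0.05) and Cd4 by -0.09. NK markers were higher in 8 of 11, with a median of 0.18 (0.06 without eGFP replicate 5) and none at p under 0.05, and Ncr1, which is largely limited to NK cells, differed by -0.13. Il15, which sustains both cell types, differed by 0.34 (SE 0.15, p under 0.05). Foxp3, the regulatory T cell factor, differed by -0.15 (p over 0.05).

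Antigen presentation genes had smaller differences than most antiviral lists. Of 16 genes for MHC class I and peptide loading 10 had a higher mean, with a median of 0.06. B2m, the light chain shared by class I molecules, differed by -0.02, the transporter Tap1 by 0.13 and the activator Nlrc5 by 0.12. H2-T24, a non-classical gene, was the 1 member at p under 0.05. It read 9.04, 8.40, 8.37, 8.38 and 8.49 in eGFP and 8.79, 8.81, 9.63, 8.82 and 9.0 in IFNbeta. eGFP replicate 1 lay above every IFNbeta array except replicate 3, and the difference was 0.48 (p under 0.05). Of 8 class II genes 0 had a higher mean, with a median of -0.11 (-0.04 without IFNbeta replicate 3), from -0.24 for H2-Aa to -0.02 for their master activator Ciita, and none had p under 0.05. In the combination against p19Arf 6 of these were higher and 2 lower, with a median of 0.16.

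Chemokines that interferons are known to raise did not stand apart either. Cxcl10, the CXCR3 ligand used as a mark of interferon activity, differed by -0.02 (p over 0.05), Cxcl9 by -0.22 (p over 0.05) and Cxcl11 by 0.22 (p over 0.05), and the Cxcl9 value was 0.00 without IFNbeta replicates 3 and 4. The monocyte-attracting Ccl8 was lower, at 10.81, 11.00, 11.22, 11.19 and 10.83 in eGFP and 10.92, 10.96, 10.38, 10.62 and 10.47 in IFNbeta. The ranges overlapped, and the difference was -0.34 (SE 0.15, p under 0.05). Ccl12 (-0.35) and the CCR4 ligand Ccl17 (-0.36) had p over 0.05, and Ccl17 became 0.02 without IFNbeta replicates 3 and 4.

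On the other side, Ppbp, a neutrophil-attracting chemokine stored in platelets, read 9.20, 8.47, 8.19, 8.03 and 8.77 in eGFP and 9.43, 8.43, 9.97, 9.40 and 9.78 in IFNbeta. One IFNbeta array, replicate 2, was within the eGFP range, and the difference was 0.87 (SE 0.27, p under 0.05). Of 7 platelet markers 2 were higher, and Gp9 (-0.21) and Itga2b (-0.15) were not among them. Of the 7 genes in its chemokine list 6 had a higher mean, and p was over 0.05 for all but Ppbp, for example Cxcl2 at 0.31, Cxcl5 at 0.15 and Cxcl1 at -0.06.

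Myeloid markers were mixed. The macrophage list had 9 of 16 higher and a median of 0.02. Fcgr1, the high-affinity antibody receptor and an interferon-inducible gene, differed by 0.45 (SE 0.18, p under 0.05), while the scavenger receptor Cd163 differed by -0.27 (p over 0.05) and Cd68 by -0.03. Among neutrophil genes the collagenase Mmp8 differed by 0.65 (SE 0.23, p under 0.05), whereas the gelatinase Mmp9 differed by -0.59 (p over 0.05). The Mmp9 arrays read 11.75, 12.33, 12.32, 12.22 and 12.24 in eGFP and 11.95, 11.52, 10.93, 11.87 and 11.66 in IFNbeta, with 1 eGFP array inside the IFNbeta range.

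Targets of p53 leaned higher in tumors that had received no p19Arf vector. Of 25 measured targets 20 had a higher mean, 6 at p under 0.05 and 3 with no overlap, and the median was 0.15. The matching shares of all genes were 44.2%, 1.34% and 0.552%. Mdm2, the ligase that degrades p53, read 10.08, 10.00, 10.03, 10.23 and 10.00 in eGFP and 10.34, 10.26, 10.53, 10.35 and 10.47 in IFNbeta. The groups were apart by 0.32 (SE 0.11, p under 0.05). Eda2r, a receptor of the TNF family, read 7.57, 7.95, 7.71, 8.00 and 7.77 in eGFP and 8.01, 8.06, 8.27, 8.39 and 8.48 in IFNbeta. It was apart by a narrow margin, with a difference of 0.44 (SE 0.13, p under 0.05). Zmat3, an RNA-binding target, differed by 0.27 (p under 0.05, groups apart) and the death receptor Tnfrsf10b by 0.31 (p under 0.05), whereas the cell death genes Bbc3 (-0.06) and Pmaip1 (-0.01) did not differ beyond their spread. In the combination against p19Arf the median of the list was 0.03 and 0 of 25 had p under 0.05.

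Stress genes leaned the same way. Of 20 genes of the unfolded protein and integrated stress response 19 had a higher mean, against 44.2% of all genes, with a median of 0.12. In the combination against p19Arf 8 of them were higher and 12 lower, with a median of -0.03. Trib3, a pseudokinase induced by Atf4 and Ddit3, differed by 0.34 (SE 0.13, p under 0.05, groups apart) and the factor Atf3 by 0.39 (p under 0.05). Cell cycle genes were higher in 24 of 29, but only by a median of 0.06, and none had p under 0.05. In the combination against p19Arf 4 of these were higher and 25 lower, with a median of -0.11.

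**Figure D4:**
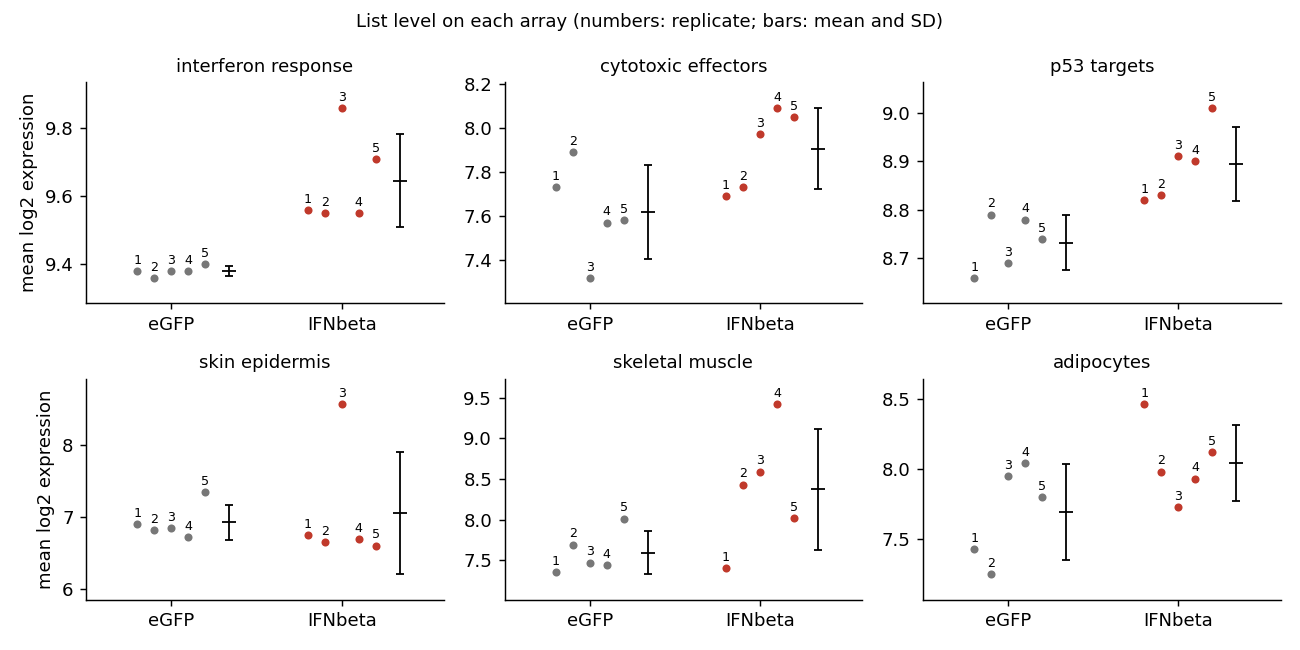
Mean log2 expression of 6 lists (y axes, a different range in each panel and not from 0) on each eGFP and IFNbeta array (x axis), numbered by replicate, with group mean and SD (n = 5). The interferon level of all IFNbeta arrays (9.55 to 9.86) lies above all eGFP arrays (9.36 to 9.40), whereas replicate 3 alone carries the skin level (8.57) and replicate 4 has the highest muscle level (9.42).

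On the lower side, the gene with the smallest p was Dbp, a circadian transcription factor that is a direct target of the clock. It read 8.54, 9.15, 8.86, 8.96 and 8.88 in eGFP and 8.50, 8.25, 8.36, 8.26 and 8.42 in IFNbeta. The groups were apart, with eGFP replicate 1 close to the IFNbeta range, and the difference was -0.52 (SE 0.12, p under 0.05). Its relative Tef (-0.22) and the clock genes Per2 (-0.30) and Per3 (-0.32) were on the same side, each at p under 0.05. Of all 18 measured clock genes 9 had a lower and 9 a higher mean. Per3 and Tef were singled out after their values were seen.

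Arntl (Bmal1), another clock gene, read 8.53, 8.59, 8.38, 8.57 and 8.47 in eGFP and 8.69, 8.72, 8.79, 8.90 and 8.73 in IFNbeta. It was apart on the higher side by 0.26 (SE 0.08, p under 0.05). The clock gene Ciart was also apart on that side, by 0.31 (p under 0.05). Of 18 clock genes 2 were higher and 4 lower at p under 0.05, where the shares of all genes were 1.34% and 1.45%, and Clock, Per1 and Cry2 differed by -0.00, 0.00 and -0.01. The hour at which tumors were taken is not in the labels, and its part in these values was not tested.

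The other genes lower in IFNbeta were of low level and diverse. The 12 with the smallest p besides predicted genes and receptors of smell included Rufy4 (-0.30), Penk, the precursor of enkephalins (-0.33), the developmental factors Lefty1 (-0.30), Cdx4 (-0.26) and Ebf4 (-0.26), and Ifnk, a type I interferon of skin (-0.28, SE 0.09, p under 0.05). Krt6b, a keratin of stressed epidermis, had the largest of these differences at -0.80, which came from eGFP arrays at 6.37 and 6.88 while the other 3 lay at 4.99 to 5.36 and the IFNbeta arrays at 4.75 to 5.06. Hair follicle keratins were lower in 13 of 13, with a median of -0.17, where 55.8% of all genes had a lower mean. Their level overlapped between groups, at 6.60 to 7.09 in eGFP, replicate 5 the highest, and 6.41 to 6.67 in IFNbeta. In the combination against p19Arf 11 were higher and 2 lower, with a median of 0.03. All 12 of 12 cholesterol synthesis genes had a lower mean, with a median of -0.16 (-0.05 without IFNbeta replicate 3) and none at p under 0.05.

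Transcripts typical of skeletal muscle, fat and skin differed between arrays, and where they came from was not tested. All 19 skeletal muscle genes had a higher mean in IFNbeta, 12 at p under 0.05, with a median of 0.81 (0.34 without IFNbeta replicates 3 and 4). The matching shares of all genes were 44.2% and 1.34%. The mean level of the list ran from 7.35 to 8.01 in eGFP and from 7.40 to 9.42 in IFNbeta, so the ranges overlapped. In the combination against p19Arf all 19 were again higher, with a median of 0.27 and 0 at p under 0.05. The fast myosin Myh4 read 6.70, 6.58, 6.96, 6.58 and 7.83 in eGFP and 6.61, 9.23, 8.61, 10.08 and 8.32 in IFNbeta, a difference of 1.64 (SE 0.63, p under 0.05). IFNbeta replicate 1 was as low as the eGFP arrays.

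Adipocyte genes were higher in 12 of 13, with a median of 0.24 (0.14 without eGFP replicate 2 and 0.13 without IFNbeta replicate 1), and levels of 7.25 to 8.04 in eGFP and 7.73 to 8.46 in IFNbeta. In the combination against p19Arf 10 were higher and 3 lower, with a median of 0.03. The fatty acid carrier Cd36 was apart at 8.58, 7.93, 8.40, 8.44 and 8.30 against 9.52, 8.62, 9.11, 9.32 and 9.20, by 0.82 (SE 0.24, p under 0.05). Pdk4, a switch to fat oxidation in muscle and fat, differed by 0.77 (SE 0.20, p under 0.05).

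Skin markers were carried by 1 array. The list stood at 8.57 in IFNbeta replicate 3 and at 6.60 to 6.75 in the other IFNbeta arrays, against 6.72 to 7.34 in eGFP. Krt10, the keratin of differentiating epidermis, read 10.41 there and 6.89 to 7.01 in the other 4, and its difference of 0.39 became -0.31 without that array. The same array had the highest interferon level. Without IFNbeta replicates 3 and 4, the arrays highest for skin and muscle, the interferon level difference was 0.22, against 0.26 with them, and 21 in place of 38 members were at p under 0.05. The part of these tissues in the other differences was not tested.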

How the data were processed

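The data are 1 table of 35556 probe sets by 20 Affymetrix arrays. The authors deposited it as processed values, read here as log2 expression because they ran from 2.33 to 14.7 with array medians close together; no header states the scale. Affymetrix Expression Console and GCOS are named, per the submitters' processing notes; the methods of summarisation and background correction were not given in the sources used here. Probe sets with exactly 1 symbol (21789; several symbols for 1621, none for 12146) were used. Where a gene had more than 1, the probe set of highest average over the 20 arrays stood for it, giving 19938 genes without a filter. Symbols were updated to the RefSeq gene table of GRCm38.p6.

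All 20 arrays entered 1 linear model, with a mean for each group, in limma 3.58.1 under R 4.3.3 (lmFit and eBayes, 16 residual and 6.06 prior degrees of freedom), 2-sided, with Benjamini-Hochberg adjustment over all genes within a contrast. The code was tested on simulated data. A fold is the linear ratio that a log2 difference stands for. The number of arrays limits the precision.

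The comparison, its gene lists and the tests were chosen with earlier results of these data known, so lists are described by counts and medians with no test of their own. Named genes were the vector genes Ifnb1 and Cdkn2a, the 12 higher and 12 lower genes of smallest p (predicted genes, small RNAs and chemosensory receptors left out), in each list the 4 members with the largest moderated statistic, and further interferon members. Other list members named with values near 0 were chosen after their values were seen. Same-numbered eGFP and IFNbeta arrays did not deviate together, so replicate numbers were not taken as pairs. Alternatives were a replicate block, only the 10 arrays, quantile normalization, median centring, trended and robust moderation, array weights, the spread of each array as a covariate, a filter on low values, the mean of probe sets, each array left out and, added after seeing the data, leaving out IFNbeta replicates 3 and 4.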

Additional observations from a re-analysis of the deposited data

Results flagged for a closer look

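Values that stood far from the rest of their group of 5 were looked for in 434 groups, over list levels and named genes, and 44 were found. The criterion is one that chance meets in about 1 in 20 independent groups, and these groups share arrays and genes. IFNbeta replicate 3 held 17 of them. On that array the Oas list level was 9.70 (8.89 to 9.09 on the others), Phf11d 9.96, Ifit3b 7.45, Oas2 11.64, Ddx60 9.79, Mx1 9.07, H2-T24 9.63 and Ifnb1 6.65 (6.03 to 6.20 on the others). It was also the array with the skin level of 8.57, Krt10 at 10.41 and Krtdap at 8.57, and it had the lowest cell cycle level of its group (9.85, against 10.20 to 10.32) and the lowest level of mesenchymal tumor markers (10.15, against 10.34 to 10.40). Uba7 (9.56) and the platelet integrin Itga2b (7.90) were highest on it, and Cd68 (10.80, against 11.39 to 11.49) and Pias1 (10.36) lowest.

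Elsewhere in the IFNbeta group, replicate 1 stood high for the mast cell and eosinophil level (7.51) and Ccdc177 (6.62) and low for Apobec3 (10.98). Replicate 2 stood high for Penk (7.79), and replicate 5 for Ifit1bl2 (7.20), Cd8b1 (8.68) and Cd8a (8.94).

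In the eGFP group, replicate 1 was low for the nucleic acid sensor level (9.23, against 9.42 to 9.45), Rsad2 (9.43), Mmp9 (11.75), Ifitm2 (11.81), Ptpn2 (9.19) and Tlr3 (7.91, against 8.61 to 8.79), and high for H2-T24 (9.04) and Pmaip1 (7.79). Replicate 2 was high for Ifitm6 (8.54) and Insig1 (10.74) and low for Oas3 (8.97), Gbp11 (7.23) and Ifi203 (10.90). Replicate 3 was high for Cd3g (8.32) and replicate 4 for the B and plasma cell level (7.36, against 6.65 to 6.80) and the B cell gene Ms4a1 (7.44, against 5.32 to 5.77). Replicate 5 was high for the erythroid level (7.91), the red cell anion exchanger Slc4a1 (8.08), Oasl2 (10.97) and the muscle calcium store protein Casq1 (6.52).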

How the results depend on the processing

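The count of genes past adjusted p under 0.05 for IFNbeta against eGFP was 0 under all alternatives run except array weights (5); for the combination against p19Arf and for the interaction it was 0 throughout. Leaving out single arrays also gave 0 in each. Correlations of the deviations of same-numbered arrays ran from -0.259 to 0.367, and with the replicate number as a block the fit again gave 0 genes. The Ifnb1 difference of 0.10 was -0.00 with array weights and -0.01 to 0.15 with single arrays left out. Krt10 was -0.17 with array weights, -0.31 (without IFNbeta replicate 3) to 0.57 with single arrays left out and -0.31 without IFNbeta replicates 3 and 4. Krtdap, another skin gene, was -0.04 to 0.76 with single arrays left out and -0.09 without both. Without both arrays Ccl17 was 0.02 and Cxcl9 0.00. Ms4a1 was 0.02 without eGFP replicate 4 and otherwise as low as -0.51 with single arrays left out. Of 3329 alternative values over 169 named genes, 5 reversed a direction and 5 passed the threshold. The difference of 36 of these genes was smaller than its SE; no direction is meant for them, and 26 had another sign under some alternative. The 268 higher genes at unadjusted p under 0.05 became 498 with only the 10 arrays, 949 with array weights, 451 with the spread covariate, 167 with the filter on low values and 167 to 352 with single arrays left out (167 without IFNbeta replicate 5). The 289 lower genes became 624, 2172, 632 and 27, and 93 (without eGFP replicate 5) to 549 (without eGFP replicate 2) with single arrays left out. The lower side thus depended on single arrays of both groups and on dim probe sets. The interferon level difference stayed between 0.20 and 0.29. The table has no background estimate, so how far low values reflect signal is unknown.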

Other observations

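A few further genes differed at an unadjusted p under 0.05 outside the groups described so far. Pfkfb3, a regulator of glycolysis, read 9.14, 8.84, 8.74, 8.69 and 8.67 in eGFP and 9.18, 8.98, 9.51, 9.19 and 9.34 in IFNbeta, a difference of 0.43 (SE 0.14, p under 0.05), while its list of hypoxia and glycolysis genes had a median of 0.03. Acta2, the smooth muscle actin of vessel walls and myofibroblasts, differed by 0.33 (p under 0.05), and the matrix list around it by a median of -0.03. Cldn5, a junction protein of endothelium, differed by -0.26 (p under 0.05), where 11 of 17 endothelial genes had a higher mean. Of 9 complement genes 7 had a higher mean, with a median of 0.16, led by Cfb at 0.41 (p over 0.05). The cytokine Il10 differed by 0.29 (p under 0.05).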
